A study of Mus musculus with 8 samples.

Results

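The complement system of the liver was followed through 31 listed genes, which cover the recognition molecules and proteases of the classical and lectin pathways, the alternative pathway, the terminal components, the soluble and membrane regulators, and the receptors on leukocytes. A gene was measured where the annotation of the array paired at least 1 probe set, a group of short probes for 1 transcript, with that gene alone. This rule gave 45 probe sets for 28 of the 31 genes, of 45037 probe sets and 18193 genes on the array. The remaining 3 genes, C3, C4b and Cfd, had no probe set of their own in the tables used here and were not analysed here. The probe set with the highest mean stood for a gene that had several.

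Liver RNA came from Pemt-/- mice, which lack phosphatidylethanolamine N-methyltransferase, and from Pemt+/+ mice. All of the mice received a high fat-high sucrose (HFHS) diet, and each genotype was measured on 4 Affymetrix arrays, with 1 array after 1, 2, 3 and 4 weeks of feeding. The study's methods describe male mice, and the strain, the age at the start of the diet and a group on standard chow were not given for these arrays. The labels did not state whether an array held the RNA of 1 mouse or of several. The study's methods give n = 4 for each genotype, with livers taken at 1, 2, 3 and 4 weeks, and do not assign mice to arrays. The p-values below therefore rest on arrays. Those of the genotype difference measure how the difference within a week varied between the 4 weeks.

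Complement is a cascade of plasma proteins in which C1q, mannose-binding lectins, ficolins or collectins recognise a target, proteases cleave C4, C2 and C3, and the terminal components C5 to C9 assemble into a membrane pore. Hepatocytes secrete most of these proteins into plasma, whereas C1q and properdin are made largely by macrophages and other leukocytes, and the receptors for C3a, C5a and iC3b sit on myeloid cells. Regulators such as factor I, C4b-binding protein and C1 inhibitor restrain the cascade in plasma, and CD55 and CD59 do so on cell surfaces.

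The knockout was visible in the targeted gene. The Pemt probe set measured 237, 203, 201 and 255 in Pemt-/- livers at weeks 1, 2, 3 and 4, against 5491, 4989, 5645 and 6045 in Pemt+/+ livers, a log2 difference of -4.54 ± 0.10 (SE, adjusted p = 5e-07, limma). Intensities were linear and had been scaled by the authors to a common trimmed mean, and their upper quartile was 384 to 425 in Pemt-/- and 363 to 370 in Pemt+/+. The markers of several cell types moved with the genotype. All 11 measured hepatocyte markers were lower in Pemt-/- livers, with a summed intensity of 303821 to 362670 against 407350 to 442533 in Pemt+/+ livers. All 10 macrophage markers were higher, with sums of 31568 to 59672 against 13473 to 18922. Among 6 markers of resident Kupffer cells 2 were higher, and the sums overlapped, at 10975 to 23413 in Pemt-/- and 10476 to 14456 in Pemt+/+. All 6 markers of stellate cells and matrix were higher, with sums of 32295 to 42436 against 12316 to 15934. Of 5 markers of sinusoidal endothelial cells, 3 were lower, Clec4g (-0.58 ± 0.15, adjusted p = 0.0336), Kdr (-0.62 ± 0.15, adjusted p = 0.0227) and Gpr182 (-0.56 ± 0.12, adjusted p = 0.015), and none was higher, with sums of 2976 to 6857 in Pemt-/- against 5624 to 8159 in Pemt+/+. All 6 male-biased liver genes were lower, with sums of 8959 to 21549 in Pemt-/- against 70913 to 111118 in Pemt+/+. The fat cell transcripts Adipoq and Retn stood at 1081 and 808 on the Pemt+/+ array of week 4, against at most 62.1 and 131 on any other array.

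Hepatocyte-made complement genes were lower and macrophage-expressed complement genes were higher in Pemt-/- livers. Of the 27 complement genes above the filter on dim probe sets, 14 were lower and 7 were higher at an adjusted p under 0.05 (limma), and 6 did not pass the test. The 14 include Masp1 through its brightest probe set only, and other probe sets of Masp1 were called higher. Of all 27022 probe sets tested, 5.86% were lower and 10.3% were higher. These shares cover bright and dim probe sets together, and a share among bright ones alone was not computed. The largest intensity on an array was 48632 to 63805 in Pemt-/- and 67412 to 82383 in Pemt+/+. The 4 Pemt-/- arrays lay below all 4 Pemt+/+ arrays for 12 complement genes and above them for 6, while such a gap was found for 8.96% and 12.8% of the probe sets tested. With 1 week left out the lower genes numbered 9 to 14 (9 without week 3), 10 after quantile normalization and 6 without the intensity trend in the variance, while the higher genes numbered 6 to 8. Among the lower genes the call was lost in 11 of 16 other settings for C4bp, 8 for C1ra, 4 each for Mbl1 and Cfi, 2 each for C8g and C9, and at most 1 for the others. The classes were set from textbook knowledge of where each protein is made, but with earlier results of these data known. The contrast between them is thus a description. The 5 measured genes with several sources were assigned to neither. In bulk liver RNA, fewer cells of a type and less RNA per cell cannot be told apart.

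**Figure D1:**
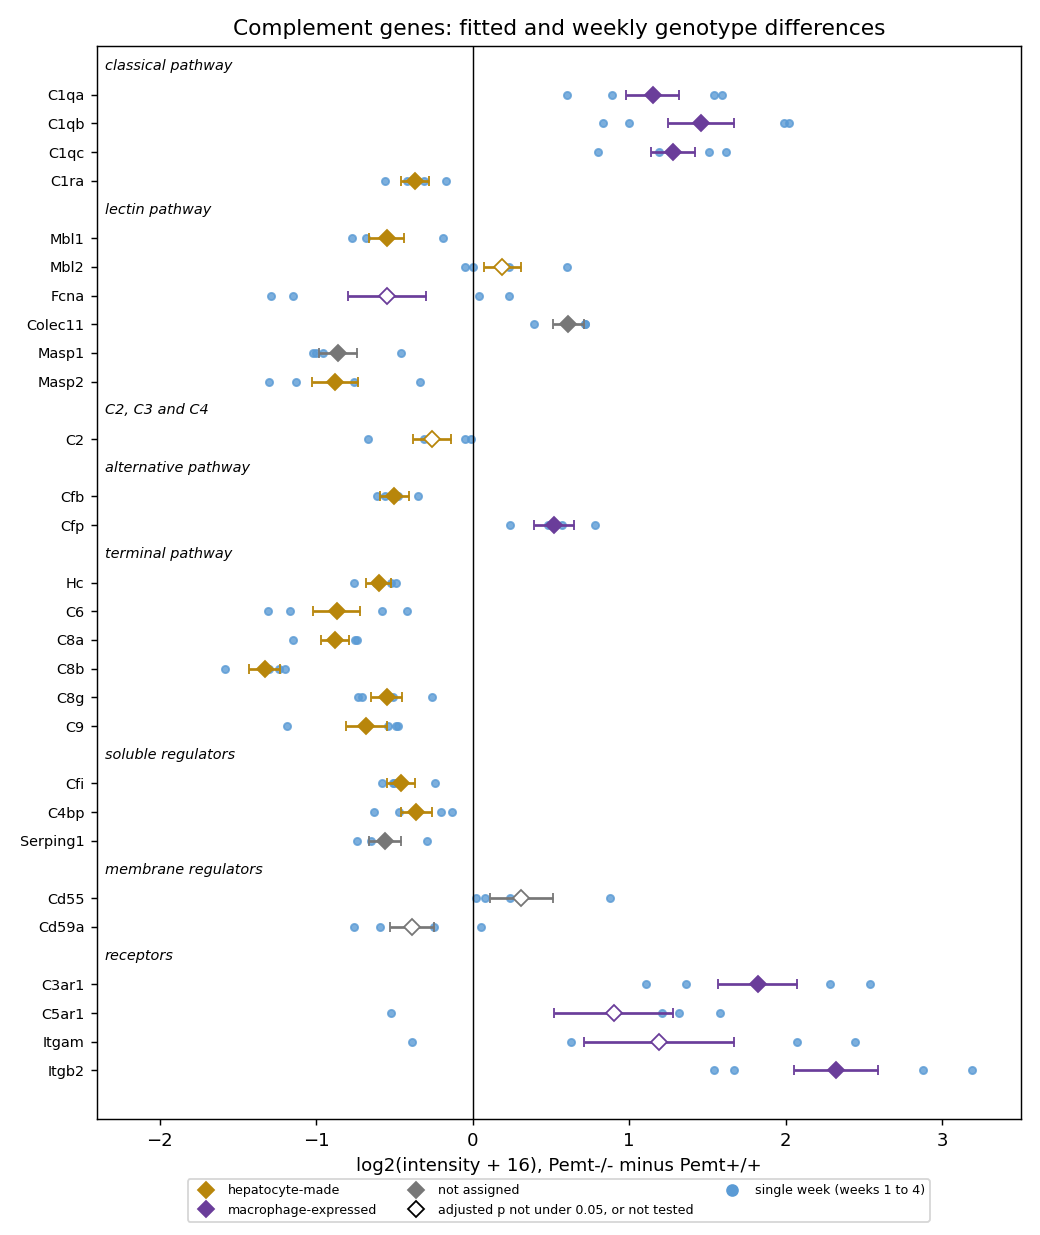
Fitted difference in log2(intensity + 16), Pemt-/- minus Pemt+/+, for the 28 measured complement genes by role. Diamonds with bars are the fit over 4 weeks ± SE, coloured by source class and filled where the adjusted p was under 0.05 and open otherwise (Itgam was not tested), and small circles are single weeks. Terminal components all lie left of 0 and the C1q chains all lie right of 0.

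Among the 14 hepatocyte-made genes measured, 12 were lower, none was higher and 2, C2 and Mbl2, did not pass the test. The median log2 difference of the class was -0.55, and it was -0.56, -0.53, -0.49 and -0.58 in weeks 1, 2, 3 and 4, beside 0.02 for all probe sets tested and -0.44 for the 11 hepatocyte markers. The size of this median depended on the scaling, since it was -0.32 after quantile normalization and -0.71 when each array was centred on the median of the probe sets above the filter. Of the 9 macrophage-expressed genes, 6 of the 8 tested were higher, none was lower and 2, Fcna and C5ar1, did not pass. Their median was 1.19 over all 9 genes, with weekly medians of 0.89, 0.60, 1.54 and 1.62, and the 10 macrophage markers had a median of 1.54, with 1.25, 0.85, 2.36 and 2.18 by week. The part of the cell type markers and of the male-biased genes in these differences was not tested.

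**Figure D2:**
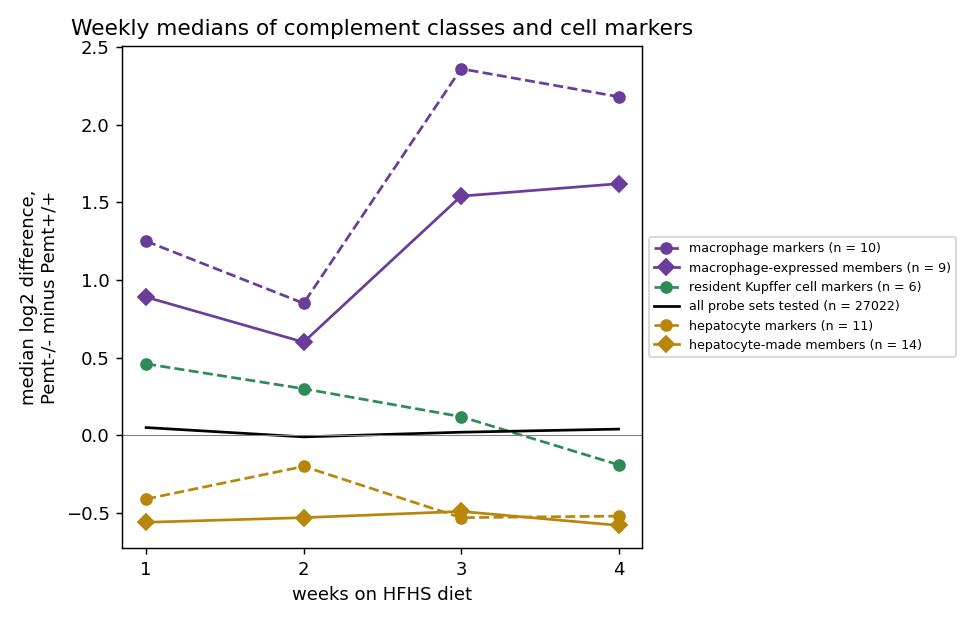
Median log2 difference, Pemt-/- minus Pemt+/+, at each week for the 9 macrophage-expressed and 14 hepatocyte-made complement genes (solid lines), for the markers of macrophages, resident Kupffer cells and hepatocytes (dashed lines), and for the 27022 probe sets tested (black). The hepatocyte-made median stays between -0.58 and -0.49, and the macrophage-expressed median is 0.60 at week 2 and 1.62 at week 4.

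Weekly ratios of 2 or more and of 0.5 or less were counted with no test, since a week held a single array of each genotype. Complement genes with a ratio of 2 or more numbered 4 at week 1, 3 at week 2, 7 at week 3 and 7 at week 4, and all of them were macrophage-expressed. The counts at weeks 3 and 4 include Itgam, which lay below the filter, with ratios of 28.7 and 29.9 over Pemt+/+ values of 3.04 and 1.99. Those at weeks 1, 3 and 4 include the dim C5ar1, with Pemt+/+ values of 15.9, 37.4 and 35.3. A ratio of 2 or more was found for 13.3%, 13.4%, 14.4% and 15.9% of all probe sets in weeks 1, 2, 3 and 4. A ratio of 0.5 or less was reached by 5, 2, 3 and 4 complement genes in these weeks, beside 14.2%, 14.9%, 15.9% and 14.6% of all probe sets. Most of the decreases among hepatocyte-made genes were thus smaller than the limit of 0.5.

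The terminal pathway was lower throughout. Its 6 measured genes, Hc, C6, C8a, C8b, C8g and C9, all passed the test with a median log2 difference of -0.77, and each was lower in all 4 weeks. C8b, the beta chain of C8, carried the greatest decrease of the complement genes. Its intensity was 3769, 6089, 3928 and 4149 in Pemt-/- livers at weeks 1 to 4, against 11327, 13986, 9728 and 9814 in Pemt+/+ livers. The highest Pemt-/- array was thus below the lowest Pemt+/+ array, and the fitted level was 2.52-fold lower (log2 difference -1.33 ± 0.10, adjusted p = 0.000392). C8a, the alpha chain whose gene is the neighbour of C8b on chromosome 4, measured 13967, 20132, 17341 and 17815 in Pemt-/- livers and 30991, 33935, 31929 and 29854 in Pemt+/+ livers. It fell by 0.88 on the log2 scale (SE 0.09, adjusted p = 0.0012), with no overlap between the genotypes. C8g, the lipocalin-like gamma chain encoded on chromosome 2, measured 18112, 23661, 18367 and 16952 in Pemt-/- livers and 25756, 28339, 30067 and 28079 in Pemt+/+ livers. Its log2 difference was -0.55 ± 0.10 (adjusted p = 0.00804), again with no overlap. The decreases of the chains were unequal. Within the same week, the log2 difference of C8b minus that of C8a was -0.49 to -0.42, and minus that of C8g it was -1.08 to -0.51. Exact two-sided permutation of the 8 arrays, which did not keep the weeks together, gave p = 0.0286 for each of these ratios. It is the smallest p that the 70 arrangements allow and also the value after adjustment over the 4 gene pairs compared. The pairs were chosen after their values were seen, so this p describes arrays that did not overlap and supports nothing further.

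Hc encodes C5, the source of the chemoattractant C5a and the first component of the pore. It measured 15957, 20671, 20092 and 18306 in Pemt-/- livers, against 26982, 29737, 28137 and 28228 in Pemt+/+ livers. All Pemt-/- arrays lay below all Pemt+/+ arrays, and the log2 difference was -0.60 ± 0.08 (adjusted p = 0.00286). C9, which polymerises to form the wall of the pore, measured 16064, 30912, 28280 and 28490 in Pemt-/- livers and 36703, 44968, 39786 and 39851 in Pemt+/+ livers. Week 1 of Pemt-/- was the lowest C9 array, and the genotypes did not overlap (-0.68 ± 0.13, adjusted p = 0.00895). C6, which joins C5b at the start of pore assembly, was low at week 1 in both genotypes. Its values at weeks 1 to 4 were 1250, 2893, 4653 and 5150 in Pemt-/- livers and 2836, 7223, 6221 and 7708 in Pemt+/+ livers. Although the ranges of C6 overlapped across weeks, Pemt-/- was the lower genotype in each week (-0.87 ± 0.15, adjusted p = 0.00726). Without the week in the model, the C6 call was lost (adjusted p = 0.183).

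**Figure D3:**
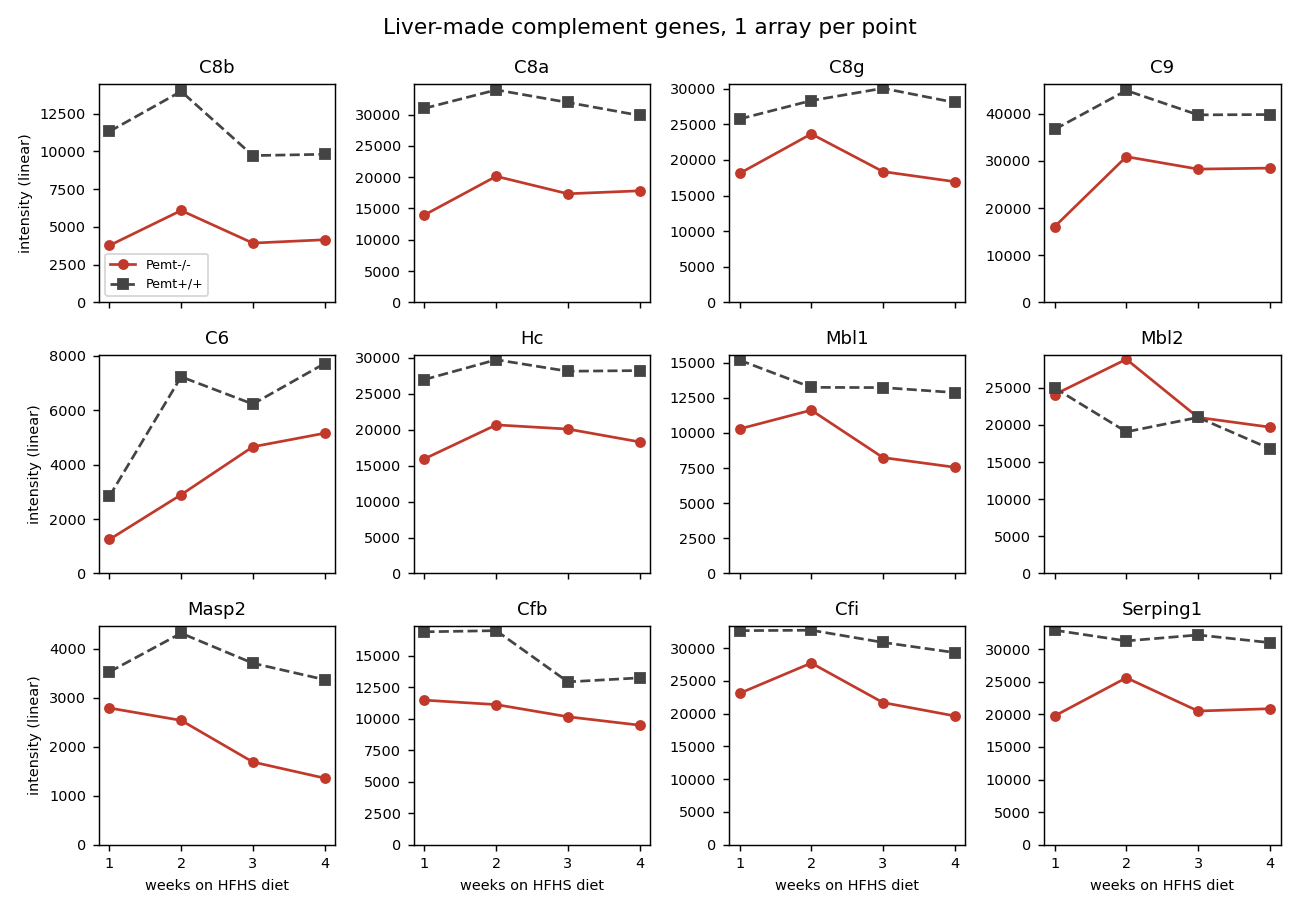
Intensity (linear scale, each panel from 0) at 1 to 4 weeks of the HFHS diet for 11 hepatocyte-made complement genes and Serping1, with 1 array per point, Pemt-/- as red circles and Pemt+/+ as grey squares. C8b lies between 3769 and 6089 in Pemt-/- and between 9728 and 13986 in Pemt+/+, whereas the lines of Mbl2 cross.

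Promoter sequence was matched for 23 of the 31 genes, 10 of the lower ones among them, from RefSeq on build GRCm38.p6, as 250 bases before and 50 after a transcript start. The upstream part of C8b is shown because this gene had the greatest decrease. It lies at chr4:104766067-104766316 on the plus strand, and capitals mark the letters ATTAAC, the reverse-strand form of GTTAAT, a short form of the site bound by HNF1, a hepatocyte transcription factor.
C8b: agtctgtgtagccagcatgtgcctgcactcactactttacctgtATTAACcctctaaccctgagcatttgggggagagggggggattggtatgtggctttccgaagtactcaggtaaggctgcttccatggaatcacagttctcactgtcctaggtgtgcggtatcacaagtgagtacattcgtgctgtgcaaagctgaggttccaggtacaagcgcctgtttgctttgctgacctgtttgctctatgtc
GTTAAT was found on either strand of the 300-base window in 5 of the 10 lower genes and in 1 of 5 higher genes with an entry, compared with 7.1% of 32851 windows of this length. The 30 bases around the matches of the lower genes are set side by side on the strand that reads GTTAAT, which is in capitals.
C8b, chr4:104766099-104766128, minus strand, 206 bases before the start: cagggttagaggGTTAATacaggtaaagta
C8a, chr4:104876488-104876517, minus strand, 107 bases before the start: ccttggttactaGTTAATcacattgaatgg
C4bp, chr1:130661665-130661694, minus strand, 64 bases before the start: ctgctctagtctGTTAATcattcaccggga
Hc, chr2:35061469-35061498, plus strand, 74 bases before the start: attagttctccgGTTAATtattaatgtcag
C1ra, chr6:124512449-124512478, plus strand, 160 bases before the start: ctcccagaaaatGTTAATccgatttagaga
For C8b and Hc this is the strand opposite to the gene. The start used for Hc lay 7094 bases inside the outer limit of the gene, and those of C8a and C4bp lay 89 and 39 bases inside. The other motifs searched were CAAAGTCC for HNF4, found in 0 of the 10 lower genes and in 1.42% of all windows, TTGCNNAA for C/EBP, found in 2 and in 10.8%, and TTCNNNGAA for STAT, found in 3 and in 8.3%. The 5 higher genes held these in 0, 0 and 1 cases, and none of the letter strings contains another. All 10 lower genes with an entry were hepatocyte-made and none of the higher ones was, so direction and cell source cannot be told apart here. Mbl2, which is hepatocyte-made and was not called, held no GTTAAT, whereas Cd55, which was not called either, held 1. A match is a description of letters and not a measured site.

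The lectin pathway was divided. Mbl1 and Mbl2 encode the mannose-binding lectins A and C, plasma collectins that recognise sugars on microbes. Mbl1 measured 10282, 11616, 8243 and 7556 in Pemt-/- livers, against 15172, 13237, 13220 and 12866 in Pemt+/+ livers, with no overlap (-0.55 ± 0.11, adjusted p = 0.0113). Mbl2 measured 24082, 28828, 21000 and 19696 in Pemt-/- livers and 24966, 19060, 21002 and 16804 in Pemt+/+ livers. The ranges of Mbl2 overlapped, 2 weeks were higher and 2 were lower, and the log2 difference of 0.19 ± 0.12 did not pass the test (adjusted p = 0.3). Within the same week, the log2 difference of Mbl2 minus that of Mbl1 was 0.51 to 1.00, and the same exact permutation test, on a pair again chosen after its values were seen, gave p = 0.0286. Under quantile normalization Mbl2 was called higher (0.44, adjusted p = 0.0155).

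The serine proteases that act with these lectins were lower on their brightest probe sets. Masp2, which cleaves C4 and C2, measured 2787, 2535, 1686 and 1357 in Pemt-/- livers and 3525, 4314, 3701 and 3366 in Pemt+/+ livers. Every Pemt-/- array was below every Pemt+/+ array (-0.88 ± 0.15, adjusted p = 0.00668), and the second probe set of the gene was also lower (-0.57 ± 0.11, adjusted p = 0.0114). Masp1 measured 2692, 4206, 3050 and 2959 in Pemt-/- livers and 5399, 5797, 5960 and 6033 in Pemt+/+ livers on its brightest probe set, with no overlap (-0.86 ± 0.12, adjusted p = 0.00238). However, its 5 probe sets disagreed. The next brightest pair was higher in Pemt-/- livers, by 0.40 ± 0.10 (adjusted p = 0.0284) and 0.42 ± 0.11 (adjusted p = 0.0302), and the other 2 did not pass. The gene gives rise to several proteins by alternative splicing, and the transcript that each probe set reads was not given. The mean of the 5 probe sets differed by -0.01 (adjusted p = 0.957), so that a direction cannot be given for Masp1 as a gene.

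Colec11, encoding collectin-11, moved the other way. It measured 5625, 5681, 6207 and 5887 in Pemt-/- livers, against 4289, 3751, 3750 and 3576 in Pemt+/+ livers, so that all Pemt-/- arrays were above all Pemt+/+ arrays (0.61 ± 0.10, adjusted p = 0.00436). The second probe set of Colec11 was higher as well (0.60 ± 0.12, adjusted p = 0.0101). The related collectin Colec10, which was not among the 31 genes, was also higher (0.53 ± 0.14, adjusted p = 0.0386).

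Fcna, which encodes ficolin A and is expressed by macrophages, was the only macrophage-expressed gene that was lower in Pemt-/- livers at weeks 3 and 4. Fcna measured 1866, 1706, 705 and 687 in Pemt-/- livers and 1593, 1664, 1585 and 1709 in Pemt+/+ livers. The Pemt-/- values were above those of Pemt+/+ at weeks 1 and 2 and were 0.445 and 0.402 of them at weeks 3 and 4. Fitted over all weeks, the difference was -0.55 ± 0.25 and did not pass (adjusted p = 0.178), and the change per week in Pemt-/- was -0.55 (adjusted p = 0.0678). A decline in Pemt-/- was also fitted for Cfp, with -0.23 per week (adjusted p = 0.474), beside -0.19 in Pemt+/+ (adjusted p = 0.964). The weekly log2 difference of Fcna minus that of C1qa was -0.67, -0.56, -2.69 and -2.88 in weeks 1 to 4 (exact permutation p = 0.0286, for a pair chosen after its values were seen). The 6 markers of resident Kupffer cells did not share 1 direction in the fitted difference, but each declined over the weeks in Pemt-/- livers. The change per week there was -1.05 for Marco, -0.94 for Timd4 and -0.47 for Cd5l (adjusted p = 0.0243, 0.0331 and 0.0498, limma). It was -0.43 for Clec4f, -0.43 for Folr2 and -0.21 for Slc40a1, which did not pass. All 6 also declined in Pemt+/+ livers (-0.37 to -0.03 per week), and the difference in change per week did not pass for any. Marco was higher in Pemt-/- in all 4 weeks, with ratios to Pemt+/+ of 5.55, 4.21, 2.29 and 1.41 (1.51 ± 0.28, adjusted p = 0.00931), and so was Cd5l, with ratios of 1.85, 1.73, 1.41 and 1.05 (0.56 ± 0.14, adjusted p = 0.0271). The other 4 did not pass, with fitted differences of 0.30 for Slc40a1, which was higher in 3 weeks, -0.02 for Clec4f, -0.36 for Folr2 and -0.57 for Timd4. Timd4 measured 365, 249, 109 and 39.4 in Pemt-/- livers and 287, 227, 208 and 192 in Pemt+/+ livers. Whether these cells had a part in the Fcna values was not tested.

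The classical pathway held both directions. C1q, the recognition molecule that binds antibody and dying cells, is built from chains encoded by C1qa, C1qb and C1qc, neighbouring genes on chromosome 4. C1qa measured 3743, 3067, 3794 and 4316 in Pemt-/- livers, against 2008, 2018, 1295 and 1426 in Pemt+/+ livers (1.15 ± 0.17, adjusted p = 0.00325). C1qb measured 2855, 2975, 4074 and 4552 in Pemt-/- livers and 1421, 1662, 1011 and 1107 in Pemt+/+ livers (1.46 ± 0.21, adjusted p = 0.00288). Each of the 3 C1qb probe sets was higher. C1qc measured 2149, 2056, 2289 and 2496 in Pemt-/- livers and 1227, 895, 793 and 802 in Pemt+/+ livers (1.28 ± 0.14, adjusted p = 0.00135). The lowest Pemt-/- array exceeded the highest Pemt+/+ array for each of the chains. Ratios of Pemt-/- to Pemt+/+ were 1.86, 1.52, 2.93 and 3.03 for C1qa over weeks 1 to 4. Its Pemt-/- value at week 3 was close to that at week 1 (3794 against 3743), whereas its Pemt+/+ value was lower (1295 against 2008). The change per week was 0.09 in Pemt-/- and -0.21 in Pemt+/+ for C1qa, 0.25 and -0.18 for C1qb, and 0.08 and -0.20 for C1qc. None of these passed. The difference in change per week did not pass for any chain, with 0.42 per week for C1qb (adjusted p = 0.568).

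C1qc was the only higher gene whose promoter window held GAGGAAGT, a form of the site of the myeloid factor PU.1, on either strand. The letters occurred in 1 of 5 higher genes with an entry, in 0 of the 10 lower genes and in 3.2% of all windows. The site is shown as the counterpart of the hepatocyte motif above, with the match in capitals.
C1qc, chr4:136893091-136893120, plus strand, opposite to the gene and 195 bases before the start: tgtgccaaaatGAGGAAGTgtctgccgtcc

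C1ra, the serine protease C1r that hepatocytes supply to the C1 complex, was lower while its partner chains were higher. It measured 5659, 7112, 5045 and 5386 in Pemt-/- livers and 8335, 8010, 6757 and 6696 in Pemt+/+ livers, with overlapping ranges and a lower value in Pemt-/- in every week (-0.37 ± 0.09, adjusted p = 0.0318). C1s1, encoding the companion protease C1s and not among the 31 genes, differed by -0.19 ± 0.09 and did not pass (adjusted p = 0.171).

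C2, the protease part of the C3 convertase, measured 2523, 3329, 3193 and 3401 in Pemt-/- livers and 4033, 4126, 3220 and 3513 in Pemt+/+ livers. On this brightest probe set the weekly values were all lower in Pemt-/-, with ratios of 0.626, 0.807, 0.992 and 0.968. Another was higher at weeks 3 and 4 (ratios 1.07 and 1.03), and the remaining one at week 4 (1.03). None of the 3 probe sets passed (-0.26 ± 0.12, adjusted p = 0.195 for the brightest). Factor B, the counterpart of C2 in the alternative pathway, is encoded by Cfb. Cfb measured 11481, 11127, 10161 and 9492 in Pemt-/- livers, against 16911, 17003, 12933 and 13251 in Pemt+/+ livers, with no overlap (-0.50 ± 0.09, adjusted p = 0.00631). Properdin, which stabilises the alternative convertase and is released by leukocytes, is encoded by Cfp. Cfp was higher in each week, at 1041, 789, 561 and 676 in Pemt-/- livers and 599, 666, 398 and 452 in Pemt+/+ livers, although the ranges overlapped across weeks (0.52 ± 0.13, adjusted p = 0.0273). The second Cfp probe set differed by 0.57 ± 0.19 and did not pass (adjusted p = 0.0784), and the call on the first was lost in 7 of the 16 other settings.

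All 3 measured soluble regulators were lower. Cfi encodes factor I, the protease that inactivates C3b and C4b. It measured 23108, 27734, 21699 and 19658 in Pemt-/- livers and 32682, 32748, 30886 and 29332 in Pemt+/+ livers, with no overlap (-0.46 ± 0.09, adjusted p = 0.0101). Serping1, encoding C1 inhibitor, measured 19768, 25626, 20521 and 20876 in Pemt-/- livers and 32933, 31289, 32206 and 31027 in Pemt+/+ livers. These ranges were also apart (-0.56 ± 0.10, adjusted p = 0.00613). C4bp, a cofactor of factor I, measured 14256, 14881, 17111 and 15903 in Pemt-/- livers and 19736, 23078, 18779 and 18214 in Pemt+/+ livers. The genotypes did not overlap for C4bp, but its adjusted p of 0.0481 (log2 difference -0.36 ± 0.10, limma) was close to the threshold. Of the 16 other settings, the call was lost in 11 for C4bp, in 4 for Cfi and in 1 for Serping1.

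Neither membrane regulator passed. Cd55, which dissociates the convertases, measured 111 to 360 in Pemt-/- livers and 91.6 to 188 in Pemt+/+ livers, with the highest value at week 1 in both (0.31 ± 0.20, adjusted p = 0.341). Its other probe sets differed by 0.00 ± 0.21 and -0.19 ± 0.26 and did not pass. Cd59a, which blocks the insertion of C9, measured 2166 to 3330 in Pemt-/- livers and 3226 to 3681 in Pemt+/+ livers, and was lower in 3 of 4 weeks (-0.39 ± 0.14, adjusted p = 0.0882). Without week 2, this probe set of Cd59a was called lower (-0.53, adjusted p = 0.0206). The second Cd59a probe set was lower in all 4 weeks with no overlap between the genotypes, and did not pass either (-0.36 ± 0.13, adjusted p = 0.0892).

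Of the 4 receptor genes measured, 2 were higher in Pemt-/- livers, 1 did not pass and 1 was not tested. Itgb2, the beta 2 integrin chain shared by complement receptors 3 and 4, measured 913, 631, 1400 and 1681 in Pemt-/- livers, against 276, 207, 176 and 170 in Pemt+/+ livers. This was the greatest increase of the complement genes, 4.99-fold, with no overlap (2.32 ± 0.27, adjusted p = 0.00156). C3ar1, the receptor for C3a, measured 256, 207, 523 and 581 in Pemt-/- livers and 89.9, 87.3, 76.7 and 107 in Pemt+/+ livers. All 3 C3ar1 probe sets were higher, and the brightest did not overlap between the genotypes (1.82 ± 0.25, adjusted p = 0.00273). C5ar1, the receptor for C5a, measured 58.1, 33.5, 118 and 137 in Pemt-/- livers and 15.9, 54.9, 37.4 and 35.3 in Pemt+/+ livers. It was higher in 3 of 4 weeks and lower at week 2, and did not pass (0.90 ± 0.38, adjusted p = 0.143), whereas without week 2 it was called higher (1.37, adjusted p = 0.0194). Itgam, the alpha chain of complement receptor 3, lay below the filter and was not tested, with 52.7, 49.3, 87.3 and 59.4 in Pemt-/- livers and 28.4, 69.8, 3.04 and 1.99 in Pemt+/+ livers. Neutrophils carry these receptors as well, and 2 of their 5 tested markers, S100a8 and S100a9, were higher. Mpo (0.04 ± 0.32), Elane (0.98 ± 0.40) and Ngp (0.24 ± 0.21) did not pass. The summed intensity over 6 markers was 1072 to 1642 in Pemt-/- livers against 217 to 610 in Pemt+/+ livers. Most of the Pemt-/- sum came from S100a8 and S100a9, with means of 538 and 420. The part of neutrophils in the receptor values was not tested. Itgax, the alpha chain of complement receptor 4 and not among the 31 genes, was higher (1.82 ± 0.20, adjusted p = 0.00133).

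**Figure D4:**
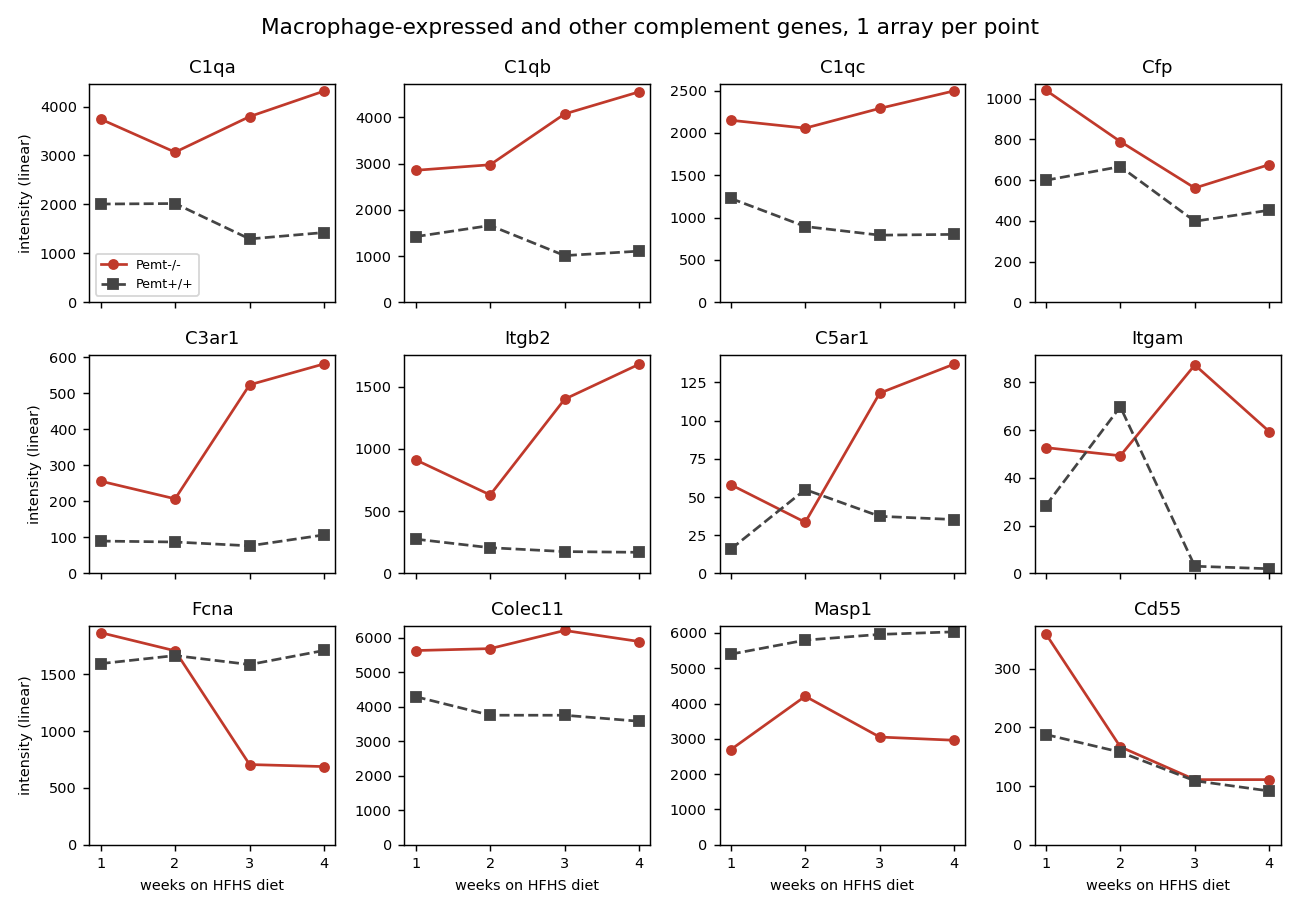
Intensity (linear scale, each panel from 0) at 1 to 4 weeks of the HFHS diet for the 9 macrophage-expressed complement genes and for Colec11, Masp1 and Cd55, with 1 array per point, Pemt-/- as red circles and Pemt+/+ as grey squares. Itgb2 reaches 1681 in Pemt-/- at week 4 while Pemt+/+ stays at or below 276, and Fcna drops to 705 and 687 in Pemt-/- at weeks 3 and 4.

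Probe sets of 1 gene mostly moved together. Of the 43 tested probe sets of complement genes 15 were lower and 14 were higher. Masp1 was the only gene with probe sets called in both directions.

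**Figure D5:**
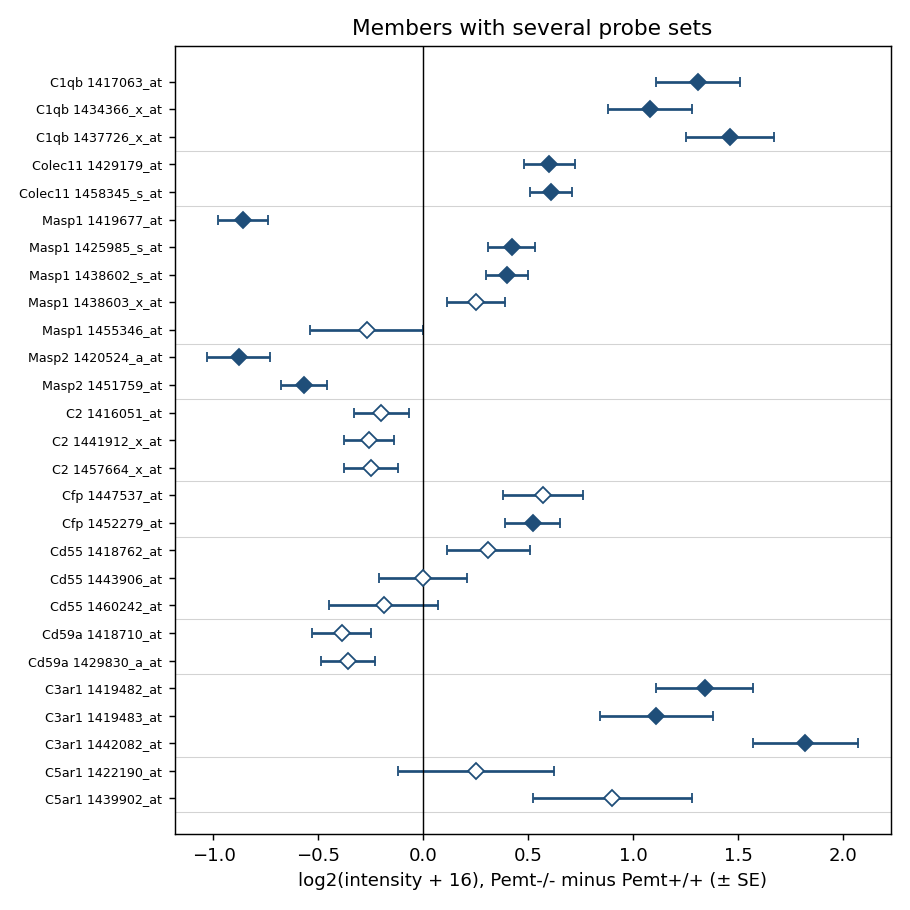
Fitted difference in log2(intensity + 16), Pemt-/- minus Pemt+/+, with bars of ± SE, for each probe set of the complement genes that have more than 1, filled where the adjusted p was under 0.05. The 3 probe sets of C1qb and of C3ar1 lie right of 0, and those of Masp1 lie on both sides, at -0.86 to 0.42.

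No complement gene had a change per week past the threshold, in Pemt-/- livers, in Pemt+/+ livers or between them (limma). Among all probe sets tested the shares called were 0.104%, 0% and 0%. At an unadjusted p under 0.05, 10, 6 and 7 of the 27 genes and 2784, 1472 and 1818 of the 27022 probe sets were found for these contrasts. The steepest fitted course in Pemt-/- was that of C6, with 0.68 per week on the log2 scale (adjusted p = 0.104), beside 0.41 in Pemt+/+ (adjusted p = 0.793). The brightest probe set of Masp2 had -0.37 per week in Pemt-/- (adjusted p = 0.088) and -0.04 in Pemt+/+ (adjusted p = 0.999). The second Masp2 probe set did not show this decline, with -0.03 per week in Pemt-/- (adjusted p = 0.956) and -0.06 in Pemt+/+ (adjusted p = 0.999). Without the arrays of week 2, C6 (0.71 per week, adjusted p = 0.0335) and the brightest Masp2 probe set (-0.35 per week, adjusted p = 0.0439) were called in Pemt-/- livers.

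A further 25 complement genes outside the 31 were listed, of which 16 were measured and 14 tested, and 4 were lower, 3 were higher and 7 did not pass. The lower genes were all plasma proteins. Cpn2, a subunit of the carboxypeptidase N that inactivates anaphylatoxins, differed by -0.86 ± 0.10 (adjusted p = 0.00169), and Cfhr2, a factor H-related gene, by -0.82 ± 0.10 (adjusted p = 0.00184). Vtn and Clu, which encode the terminal pathway inhibitors vitronectin and clusterin, differed by -0.35 ± 0.08 (adjusted p = 0.0226) and -0.31 ± 0.08 (adjusted p = 0.0315), and another Clu probe set differed by -0.01 ± 0.11 (adjusted p = 0.956). Besides Colec10 and Itgax, Cd93 was higher (0.91 ± 0.23, adjusted p = 0.0293). Vsig4, the complement receptor of resident Kupffer cells, measured 3424, 2487, 1596 and 1306 in Pemt-/- livers and 1796, 1933, 1179 and 1323 in Pemt+/+ livers, and did not pass (0.42 ± 0.15, adjusted p = 0.0844).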

How the data were processed

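Liver RNA of Pemt-/- and Pemt+/+ mice on the HFHS diet was measured on 8 Affymetrix arrays. The deposited values were linear intensities per probe set, which the authors had scaled to 1 common trimmed mean on all arrays (2% left out at each end). Affymetrix Expression Console is named in the submitters' processing notes, and its version and the summarisation method were not given in the sources used here. After 64 control probe sets were left out, 45037 remained, of which 34945 were paired with 1 gene, 932 with several and 9160 with none, and 34741 matched RefSeq (GRCm38.p6) by Entrez identifier. Medians of the arrays lay between 73.8 and 81.3, and the number of arrays limits the precision.

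Values were taken as log2(intensity + 16), which understates changes of dim probe sets. Probe sets above the 40th percentile of the mean were tested (27022). For the genotype difference, limma 3.58.1 was run in R 4.3.3 (lmFit with the week as a factor, eBayes with an intensity trend, two-sided), and p-values were adjusted by the Benjamini-Hochberg method over all 27022, with a threshold of 0.05. The change per week was the slope of a straight line over the weeks, fitted for each genotype. All 31 genes were accounted for, and values on every array were given for the genes that passed and for the macrophage-expressed genes. The genes, their classes and the marker lists were chosen with earlier results of these data known. The fit was tested on simulated data. Alternatives were other filters, scalings, pseudocounts (1 and 64), eBayes without the trend, other probe set rules, no week in the model and each week left out. Median centring on the probe sets above the filter was chosen after seeing the data.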

Additional observations from a re-analysis of the deposited data

Results flagged for a closer look

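In groups of 4 arrays, 1 array stood apart from the other 3 for 2 complement genes, out of 56 groups examined, and chance alone flags about 1 in 20. The C8b intensity was 6089 in Pemt-/- at week 2, against 3769, 3928 and 4149 in the other Pemt-/- weeks, and week 2 was also the highest C8b week in Pemt+/+, at 13986. The Mbl1 intensity was 15172 in Pemt+/+ at week 1, against 13237, 13220 and 12866 in the other Pemt+/+ weeks. Leaving out the week concerned kept C8b past the threshold, and Mbl1 moved to an adjusted p of 0.0501 without week 1.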

How the results depend on the processing

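Of 430 comparisons of a gene with another setting, 383 kept direction and side of the threshold, 42 lost a call, 5 gained one and 0 turned the direction, and 12 genes, among them C1qa, C1qb, C1qc, C3ar1, Itgb2, Colec11, Masp2, Hc, C8a and C8b, kept theirs in all 16 settings. The number of lower genes, 14, became 6 with eBayes without trend, 10 after quantile normalization, and 9 to 14 when each week was left out in turn (9 without week 3). The hepatocyte-made median of -0.55 was -0.32 after quantile normalization, -0.71 after median centring on the probe sets above the filter, and -0.64 (without week 2) to -0.50 (without week 4) when 1 week was left out. Complement genes called for the change per week in Pemt-/- numbered 0 to 2 with 1 week left out, 2 without week 2. Calls over all probe sets numbered 4372, against 2348 with eBayes without trend, 2868, 4793, 1818 and 2040 without weeks 1, 2, 3 and 4, 2797 with 1 probe set per gene and 2039 with the mean per gene, and the causes were not tested. Of these calls 63.8% were higher, and 37.6% under centring on the probe sets above the filter, which moved the median of all from 0.02 to -0.14. Under that centring 16 complement genes were lower and 6 were higher. The weeks are shared numbers and do not pair mice. With no replicate block 12 genes were lower and 6 higher, and the same-week deviations of the genotypes correlated at 0.10, -0.02, -0.03 and 0.11 in weeks 1 to 4. Dim receptors such as Itgam and C5ar1 are limited by their signal.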
